A study of Mus musculus with 44 samples.

Results

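PCGF1 peaks that shared no base with a RING1B peak or an H3K27me3 region made up 346 of the 2569 peaks deposited for PCGF1 in mouse haematopoietic progenitor cells (13.5%, exact 95% binomial interval 12.2 to 14.8). Both partner lists and the PCGF1 list come from chromatin immunoprecipitation and sequencing (ChIP-seq), in which fixed chromatin is sheared, pulled down with an antibody and sequenced. The 346 peaks were chosen by what they do not overlap in the deposited lists, so the absence of RING1B and H3K27me3 on them is the definition of the set and not a measurement.

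PCGF1 is the subunit that defines one of the variant forms of Polycomb repressive complex 1. In this form PCGF1 pairs with RING1B, the enzyme that attaches ubiquitin to histone H2A, and with KDM2B, a protein that binds unmethylated CpG-rich DNA, and with BCOR or BCORL1. H3K27me3 is methylation of histone H3 by Polycomb repressive complex 2, whose recruitment can follow the ubiquitin mark. In blood progenitors Polycomb complexes are known for holding lineage and developmental regulators silent. The peaks described here are therefore the PCGF1 calls for which neither RING1B nor H3K27me3 was called at the same bases. Where they are called without partners below, only this is meant. No list for KDM2B, BCOR or BCORL1 was used here.

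All cells behind the 3 lists were IdHP cells of the strain B6CBAF1/J, bone marrow progenitors grown on TSt4 stroma with IL7, SCF and Fl3L (as labelled) for 15 to 18 passages. PCGF1 was mapped with an antibody to the FLAG tag in Pcgf1 -/- cells that carried FLAG-PCGF1, so the protein seen is an added, tagged one and not the native protein. RING1B, with an in-house antibody, and H3K27me3 were mapped in Pcgf1 fl/fl cells, which still have their own PCGF1. Each list stands for 2 libraries, 6 of the 44 in the series. The comparison of the lists therefore sets tagged PCGF1 in one cell population beside RING1B and H3K27me3 in another. A FLAG library of Pcgf1 -/- cells without FLAG-PCGF1 is named in the labels and was not analysed here. The lists hold no expression values, so the labelled cell type was not checked against its markers.

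No library has values of its own, so nothing below has a replicate error and no difference was tested. Peaks are not replicates. The intervals given for shares are exact 95% binomial (Clopper-Pearson) intervals, those for medians are distribution-free 95% intervals from order statistics, and both cover counting error only. Read depth is unknown from the lists. Positions are in build mm9. No genes or sequences are named, because the gene and promoter tables used with this work belong to another build.

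The peaks on neither list were short and of low significance. They had a median width of 157.5 bp (interval 145 to 172) and an interquartile range of 94 to 224 bp. The median was 172.5 bp (160 to 203) in the 288 PCGF1 peaks on H3K27me3 alone, 214.5 bp (204 to 225) in the 928 on RING1B alone and 378 bp (343 to 408) in the 1007 on both. Together the 346 peaks covered 65.9 kb, out of 1080 kb for the whole PCGF1 list. A width of 49 bp, the smallest in the PCGF1 list, was found for 22 of them (6.36%, 4.03 to 9.47), and 95 (27.5%, 22.8 to 32.5) were no wider than 100 bp. Only 17 (4.91%, 2.89 to 7.75) were wider than 500 bp, where 16.3% (12.2 to 21.1) on H3K27me3 alone, 18.1% (15.7 to 20.7) on RING1B alone and 39.8% (36.8 to 42.9) on both lists were. A wide peak has more bases that can meet another list, so width bears on membership by construction.

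The PCGF1 and RING1B lists have no column names and their caller is not given in the sources used here, so fold enrichment, -log10 p and -log10 q were read from the usual order of broadPeak columns. Read this way, the authors' fold enrichment, a ratio of the peak over a background, had a median of 4.65 (4.61 to 4.70) over the 346 peaks. In the peaks on RING1B alone, on H3K27me3 alone and on both lists the medians were 4.76 (4.74 to 4.79), 4.79 (4.73 to 4.84) and 4.90 (4.87 to 4.93). The deposited -log10 q, read as the significance of a peak, had a median of 1.64 (1.57 to 1.73) on neither list. The corresponding medians were 1.89 on RING1B alone, 1.90 on H3K27me3 alone and 2.19 on both. A -log10 q of at least 2 was reached by 94 of the 346 (27.2%, 22.5 to 32.2), against 43.6% (40.4 to 46.9) on RING1B alone, 44.8% (39.0 to 50.7) on H3K27me3 alone and 60.8% (57.7 to 63.8) on both. The lowest -log10 q in the whole PCGF1 list was 1.08, and it belonged to a peak on neither list. So the peaks without partners had the lowest median fold and the lowest median -log10 q of the 4 classes. Their lowest single fold, 2.09, was not the lowest in the list: it was 1.77 on both lists, 1.84 on RING1B alone and 2.05 on H3K27me3 alone.

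**Figure D1:**
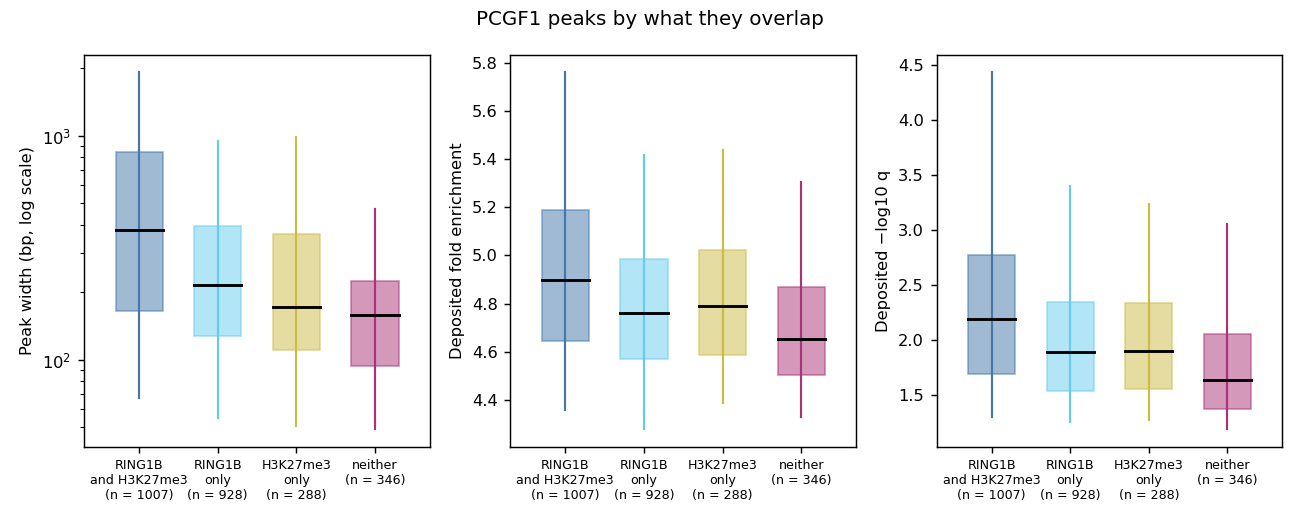
Width, deposited fold enrichment and deposited -log10 q of the PCGF1 peaks in 4 classes of overlap. Black lines are medians, boxes run from the 25th to the 75th percentile of peaks and lines from the 5th to the 95th; the peaks on neither list have the lowest median in each panel (157.5 bp, 4.65 and 1.64).

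Part of that difference in medians went with width. Among PCGF1 peaks of up to 100 bp the median fold was 4.70 (4.64 to 4.78) on neither list, 4.69 (4.63 to 4.74) on RING1B alone, 4.73 (4.64 to 4.82) on H3K27me3 alone and 4.68 (4.62 to 4.81) on both, values that lie inside each other's intervals. Between 200 and 500 bp the medians were 4.66 (4.57 to 4.73) on neither list, 4.75 (4.71 to 4.79) on RING1B alone, 4.72 (4.68 to 4.84) on H3K27me3 alone and 4.81 (4.77 to 4.85) on both. In the same width class the median -log10 q was 1.62 (1.56 to 1.76) on neither list, 1.88 (1.83 to 1.95) on RING1B alone, 1.84 (1.66 to 2.00) on H3K27me3 alone and 1.99 (1.91 to 2.05) on both. Over 100 and up to 200 bp the median fold was 4.59 (4.56 to 4.65) on neither list. It was 4.68 (4.61 to 4.71) on RING1B alone, 4.73 (4.64 to 4.81) on H3K27me3 alone and 4.65 (4.60 to 4.68) on both. The median -log10 q there was 1.54, 1.71, 1.76 and 1.68 in the same order. Up to 100 bp it was 1.79, 1.69, 1.78 and 1.99. Over 500 bp the median folds were 4.92 (4.85 to 5.16), 4.98, 4.97 and 5.16. The shortest peaks were thus close in fold. In each wider class the peaks on neither list had the lowest median fold, with some overlapping intervals.

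Seen from the whole PCGF1 list, the share of peaks without partners went down with width. With width left free, this share also went down with fold and -log10 q, and in part it did so within width classes. It was 20.8% (17.2 to 24.8) of 457 peaks up to 100 bp and 20.4% (17.4 to 23.6) of 683 peaks over 100 and up to 200 bp. It was 11.9% (9.76 to 14.4) over 200 and up to 500 bp, and 4.26% (2.45 to 6.82) over 500 and up to 1000 bp. Above 1000 bp, 1 of 257 peaks was without partners. By fold the share ran from 21.3% (18.2 to 24.7) in the lowest 25% of PCGF1 peaks to 7.17% (5.29 to 9.44) in the highest. By -log10 q it ran from 23.2% (20.0 to 26.6) in the lowest 25% of PCGF1 peaks to 6.85% (5.02 to 9.09) in the highest. Within peaks of up to 200 bp there was no steady fall by fold: the 4 shares were 22.9% (19.0 to 27.2), 19.5%, 19.8% and 17.5% (12.2 to 24.1) from the lowest to the highest 25%, and these intervals overlapped. By -log10 q the shares in these peaks fell at each step: 25.5% (21.4 to 29.8), 18.8%, 17.4% and 15.5% (10.5 to 21.6). The first and last of these intervals overlapped slightly. Within peaks over 200 and up to 500 bp they were 20.1% (14.7 to 26.4), 12.0%, 7.24% and 7.58% (3.69 to 13.5) by fold. The intervals of the lowest and highest 25% did not overlap there. In the same peaks the shares were 18.7% (13.5 to 24.8), 13.7%, 6.19% (3.34 to 10.4) and 7.91% (4.02 to 13.7) by -log10 q.

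**Figure D2:**
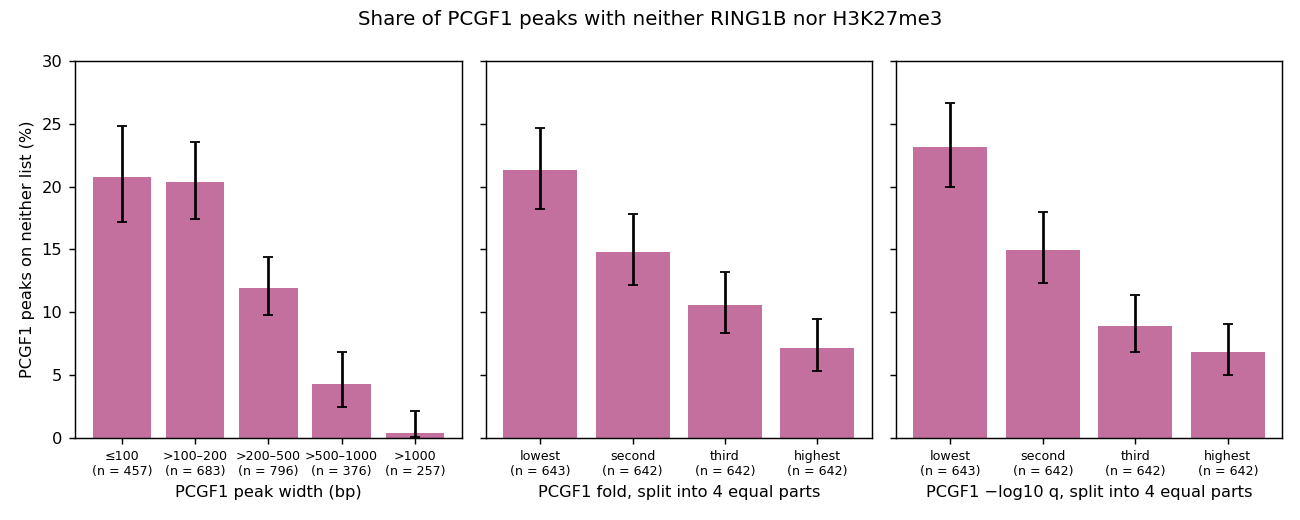
Share of PCGF1 peaks on neither list by peak width in 5 classes of unequal size, and by fold and -log10 q, each of which is split into 4 equal parts. Bars start at 0, error lines are exact 95% binomial intervals and n is the number of PCGF1 peaks in each class; the share falls from 20.8% in the shortest class to 0.389% in the widest, and from 23.2% to 6.85% from the lowest to the highest part of -log10 q.

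Many of the 346 peaks lay close beside RING1B although they shared no base with it. The gap to the nearest RING1B peak was at most 100 bp for 45 of them, at most 500 bp for 146 and at most 1 kb for 175 (50.6%, 45.2 to 56.0). There were 5 more between 1 and 2 kb, 15 between 2 and 5 kb and 25 between 5 and 10 kb, which is 5 per kb in each of these steps. Beyond 10 kb lay 126 (36.4%, 31.3 to 41.7), with 31 between 10 and 20 kb and 49 between 20 and 50 kb. The number of peaks per kb was therefore highest within 1 kb, level from 1 to 10 kb and lower beyond. Of all bases off both partner lists, 1.39% lay within 1 kb of a RING1B peak and 9.87% within 10 kb, in a span that includes unsequenced gaps. The share within 1 kb was lower with a shorter RING1B list. Counting only RING1B peaks with a -log10 q of at least 2, 448 PCGF1 peaks were on neither list. Of these, 30.1% (25.9 to 34.6) lay within 1 kb of such a peak. Leaving out RING1B peaks can only keep or lengthen the gap of a given peak, so a lower share is partly built in. The share of bases was not computed for the shorter list.

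Lying beside RING1B was not limited to these peaks. Of the 288 PCGF1 peaks on H3K27me3 alone, which also lack RING1B, 111 (38.5%, 32.9 to 44.4) lay within 1 kb of a RING1B peak, and 12 lay between 1 and 2 kb. In both classes fewer peaks per kb lay beyond 1 kb than within it. The share within 1 kb was lower in the peaks on H3K27me3, a difference that was not tested. With PCGF1 peaks within 1 kb merged, the share on neither list was 40.2% (34.2 to 46.3). Merging was not run for the peaks on H3K27me3 alone.

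Distance to H3K27me3 had no such step. The nearest H3K27me3 region was within 1 kb for 34 of the 346 peaks (9.83%, 6.90 to 13.5), within 5 kb for 152 (43.9%, 38.6 to 49.3) and within 10 kb for 213 (61.6%, 56.2 to 66.7). The share of bases off both lists at these distances was 12.4%, 39.7% and 57.4%, each inside the interval of the peaks. Right at the border there were fewer peaks than bases: 11 peaks (3.18%, with an upper bound of 5.62%) lay within 500 bp of H3K27me3, against 6.34% of bases. Farther out there were more: 97.7% of the 346 peaks (with a lower bound of 95.5%) and 94.1% of bases lay within 50 kb. The median gap was 6.31 kb (interquartile range 2.54 to 16.3) and the longest 66.3 kb. PCGF1 peaks on RING1B alone lay closer to H3K27me3, with 53.7% (50.4 to 56.9) within 5 kb and a median gap of 4.24 kb. For comparison, 50.6% of the 346 peaks and 1.39% of bases lay within 1 kb of RING1B. With the taller 50% of H3K27me3 regions alone, the share within 1 kb was 6.50%.

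**Figure D3:**
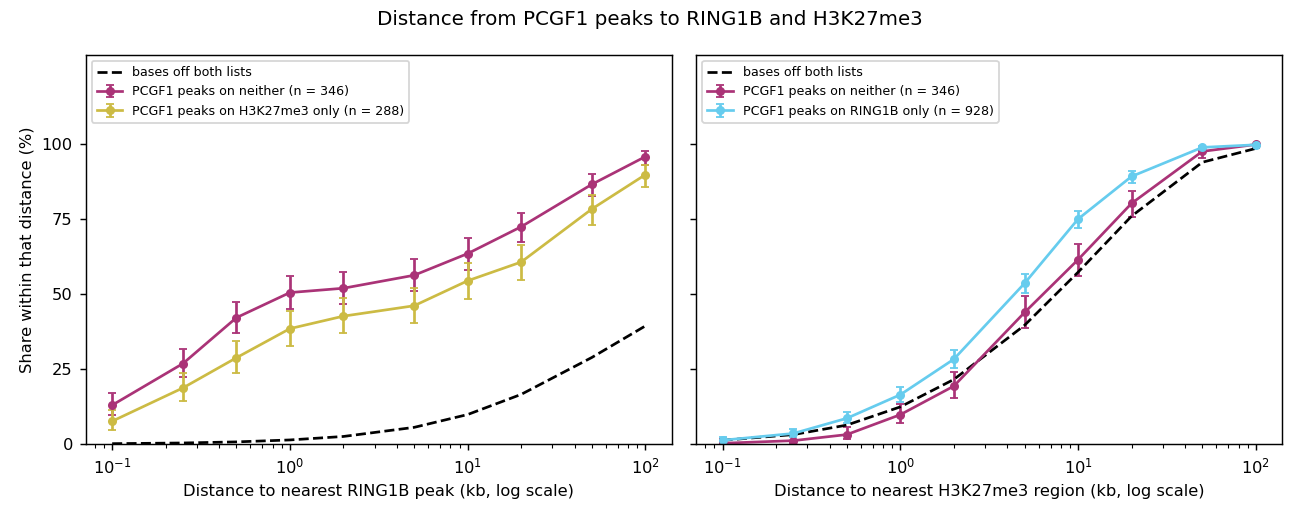
Cumulative share of PCGF1 peaks within a given distance of the nearest RING1B peak (left) and H3K27me3 region (right), on a log distance axis, with exact 95% binomial intervals. The dashed line is the share of all bases off both lists; on the left 50.6% of the peaks on neither list are reached at 1 kb, where 1.39% of bases are, and on the right the peaks stay close to the dashed line, with 43.9% against 39.7% at 5 kb.

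The 175 peaks within 1 kb of RING1B were flanks of 161 distinct RING1B peaks. These RING1B peaks had a median width of 748 bp and a median fold of 3.33, close to the 744 bp and 3.22 of the whole RING1B list, so they were of middling size and strength for RING1B. A PCGF1 peak lay on 50 of the 161 (31.1%, 24.0 to 38.8), against 5.85% of all RING1B peaks, and 15 (9.32%, 5.31 to 14.9) lay on H3K27me3, against 44.4% of all. The first of these shares is tied to the choice of RING1B peaks that have a PCGF1 peak within 1 kb. PCGF1 peaks often lie near each other: 36.5% of those on RING1B alone had another within 1 kb. The second share is tied to the rule, which removed PCGF1 peaks on H3K27me3. In 12 of the 175 cases a RING1B peak lay within 1 kb on each side. Another PCGF1 peak lay within 1 kb of 76 of the 175 (43.4%, 36.0 to 51.1). The nearest such neighbour lay on RING1B in 49 of the 76 cases, of which 43 were on RING1B alone and 6 on both lists.

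The 126 peaks beyond 10 kb from RING1B were mostly alone. Another PCGF1 peak lay within 1 kb of 17 of them (13.5%, 8.06 to 20.7). The neighbour was itself without partners in 15 of those cases and on H3K27me3 alone in 2. No such neighbour could share a base with RING1B, since the widest PCGF1 peak was 5779 bp, so its lack of RING1B is built in. No RING1B peak at all lay within 50 kb of 46 of the 126. An H3K27me3 region lay within 5 kb of 55 (43.7%, 34.8 to 52.8). With no RING1B, no H3K27me3 and no other PCGF1 peak within 10 kb there were 46 of the 346; these and the former 46 are counts of different sets.

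In fold and -log10 q the peaks within 1 kb of RING1B (the near group) and those beyond 10 kb (the far group) had similar medians. Median fold was 4.67 (4.59 to 4.72) within 1 kb of RING1B and 4.68 (4.60 to 4.77) beyond 10 kb, and median -log10 q was 1.64 (1.54 to 1.76) and 1.71 (1.58 to 1.88). A -log10 q of at least 2 was reached by 26.9% and 27.8% of them. The near group was somewhat shorter, at a median of 137 bp (122 to 163) against 173.5 bp (156 to 193). The highest values belonged to the far group, which reached a fold of 7.30 and a -log10 q of 9.33, where the near group reached 6.24 and 4.43.

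The wider surroundings were described by the share of their bases in H3K27me3 regions. In a window reaching 50 kb to each side, H3K27me3 regions covered a median of 16.5% of the bases around the 346 peaks (interquartile range 7.10 to 28.7). The median was 18.7% around peaks on RING1B alone. It was 49.8% and 53.2% around the 2 classes of peaks on H3K27me3, which count their own region, so a higher value there is partly built in. Over the whole span of the lists, which includes unsequenced gaps, H3K27me3 regions covered 483 Mb of 2585 Mb. The stretch free of H3K27me3 that held a peak had a median length of 38.7 kb, against 32.6 kb for peaks on RING1B alone. The H3K27me3 regions nearest to the 346 peaks were of usual size, with a median height (the highest signal in the region, on a scale the files do not state) of 68.6 against 68.5 in the whole list.

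Most of the 346 peaks, 249, had no other PCGF1 peak within 1 kb. Of the other 97, 56 stood in a group with a PCGF1 peak on RING1B and 3 in a group with one on H3K27me3 but not RING1B. The remaining 38 formed 18 groups of their own, 16 of 2 peaks and 2 of 3 peaks. No group with a member held more than 5 PCGF1 peaks.

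The 2 groups of 3 showed both settings. On chromosome 5 the peaks lay at 151395658 to 151395706, 151395989 to 151396282 and 151396558 to 151396717, with folds of 4.91, 5.31 and 4.49 and a -log10 q of 2.04, 2.82 and 1.34. They were the peaks farthest from both lists, with the nearest H3K27me3 region 65.2 to 66.3 kb away and the nearest RING1B peak 80.1 to 81.1 kb away. On chromosome 10 the peaks lay at 74523339 to 74523398, 74523813 to 74524141 and 74524395 to 74524549, with folds of 4.82, 4.97 and 4.39. They began 76 bp from a RING1B peak of 1072 bp and fold 3.29, and their nearest H3K27me3 region was 30.1 to 31.1 kb away. In both groups the middle peak was the widest, at 294 and 329 bp, and had the highest fold.

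Single peaks with the highest fold were short. The highest fold, 7.30 with a -log10 q of 6.41, was at chromosome 16, 12711887 to 12711935, a peak of 49 bp with no RING1B peak for 545 kb and no H3K27me3 region for 36.0 kb. The next, of fold 6.87 and 94 bp, was at chromosome 9, 21754923 to 21755016, with an H3K27me3 region 1.62 kb and a RING1B peak 4.84 kb away. The third, of fold 6.24 and 49 bp, was at chromosome 15, 95621468 to 95621516, 142 bp from a RING1B peak of 350 bp and fold 3.43. Of the 10 with the highest fold, 7 were no wider than 100 bp, 4 had the smallest width of 49 bp, 2 lay within 1 kb of RING1B and 5 beyond 10 kb. The other 7 had folds between 5.58 and 6.12.

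Those other 7 were spread over chromosomes 15, 11, 10, 1 and 7. On chromosome 15 they were 76648131 to 76648394 (fold 6.12) and 101054984 to 101055074 (fold 5.65), and on chromosome 10 79336961 to 79337040 (fold 5.89) and 80870126 to 80870174 (fold 5.58). On chromosome 11, 107331477 to 107331651 (fold 6.05) lay 84 bp from a RING1B peak and 201 bp from another PCGF1 peak. On chromosome 1 the peak was 167693958 to 167694093 (fold 5.77), and on chromosome 7 29237328 to 29237376 (fold 5.62), 221 bp from another PCGF1 peak.

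Ranking by -log10 q gave 8 of the same 10 peaks and 2 others. The highest -log10 q, 9.33, was at chromosome X, 31247802 to 31247850, a 49 bp peak of fold 4.39, below the median fold of the set. The second, 7.50, was at chromosome 4, 71689111 to 71689169, 59 bp wide with a fold of 5.08. Neither had RING1B nearby, with gaps of 388 and 171 kb. A -log10 q of at least 5 was reached by 4 of the 346 peaks (1.16%, 0.316 to 2.93), against 4 of 288 (1.39%, 0.380 to 3.52) on H3K27me3 alone, 2.26% (1.41 to 3.44) on RING1B alone and 3.48% (2.43 to 4.80) on both lists. The intervals of these 4 classes overlap. All 4 peaks on neither list were under 100 bp wide.

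**Figure D4:**
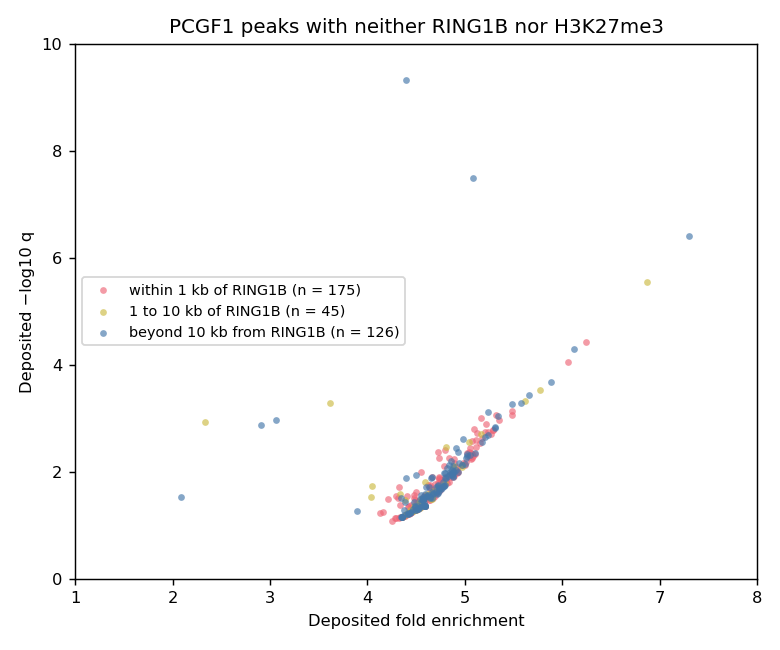
Deposited fold enrichment against deposited -log10 q for the 346 PCGF1 peaks on neither list, coloured by distance to the nearest RING1B peak. Most points lie on one rising band between folds of 4 and 6; the 2 points with the highest -log10 q, 9.33 and 7.50, and the points with folds below 4 lie above or to the left of it.

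Fold and -log10 q rose together across most of the 346 peaks (Spearman's rho 0.85 across peaks, which share their libraries). Fold did not rise with width in the set (rho -0.0041), while it did across the 2223 other PCGF1 peaks (rho 0.43). The 2 values cover unlike ranges of width, since only 17 of the 346 were wider than 500 bp. Those 17 had a median fold of 4.92, against 4.59 over 100 and up to 200 bp. In the other classes too, median fold was no higher over 100 and up to 200 bp than up to 100 bp. Fold, -log10 p and -log10 q were all equal to those of another PCGF1 peak in 38 of the 346, and in 137 of all 2569. The commonest such set of values among the 346, a fold of 4.59 with a -log10 q of 1.37, belonged to 9 of them, with widths from 59 to 201 bp, and to 26 PCGF1 peaks in all. The next, 4.36 with 1.16, belonged to 8 of them and to 28 in all. Both stand close to the lowest -log10 q in the PCGF1 list, 1.08.

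Away from that band, 6 peaks had a fold below 4, a group named after its values were seen. The lowest fold, 2.09, was at chromosome Un_random, 4259920 to 4260074. The next were 2.33 at chromosome 19, 45724479 to 45724677, and 2.91 at chromosome 5, 37051923 to 37052261. The remaining folds were 3.06 at chromosome 17, 53291838 to 53291931, 3.62 at chromosome X, 166424894 to 166425138, and 3.89 at chromosome 19, 7114326 to 7114489. Their -log10 q ran from 1.27 to 3.29, and 4 of them, those on 5, 17, X and the first on 19, were at 2.87 or more. The 13 other peaks with a -log10 q between 2.8 and 3.4 had folds of 5.17 or more. The background behind each ratio was not analysed here, so its part in these values was not tested. Folds below 4 were not rarer elsewhere, with 3.88% (2.73 to 5.33) on RING1B alone and 2.08% (0.768 to 4.48) on H3K27me3 alone against 1.73% (0.639 to 3.74) on neither list.

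The widest peaks on neither list lay in mixed settings. The widest, of 1332 bp and fold 5.02, was at chromosome 9, 20836294 to 20837625, with H3K27me3 5.44 kb and RING1B 14.4 kb away, and it was the 1 peak over 1000 bp. The second, of 935 bp and fold 5.23, at chromosome 11, 74642479 to 74643413, stopped 94 bp short of a RING1B peak of 1955 bp and fold 4.67. The fifth, of 703 bp and fold 5.16, at chromosome 11, 77275494 to 77276196, stopped 48 bp short of RING1B and 373 bp short of H3K27me3. The other 2, at chromosome 14, 78706998 to 78707858, and chromosome 2, 165818179 to 165818967, lay 22.6 and 9.46 kb from RING1B and had folds of 4.85 and 4.54. After the group on chromosome 5, the most remote peaks were 1 of fold 4.88 at chromosome 12, 45430718 to 45430783, at least 59.9 kb from either list, and 1 of fold 4.59 at chromosome 3, 144232506 to 144232706, at least 52.8 kb away.

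**Figure D5:**
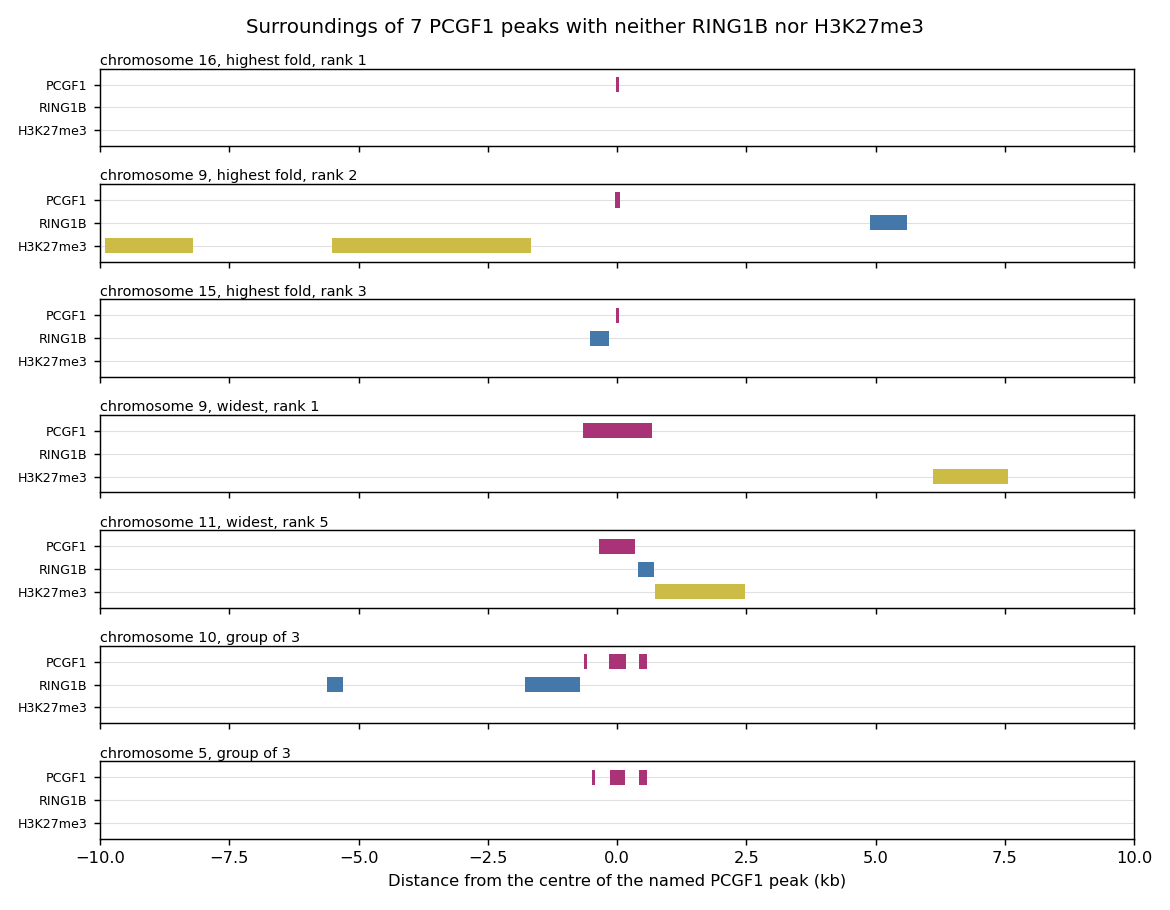
Deposited PCGF1, RING1B and H3K27me3 calls up to 10 kb to each side of 7 PCGF1 peaks on neither list, by distance from the centre of the peak; calls shorter than 60 bp are drawn 60 bp wide. The strongest peak, on chromosome 16, and the group of 3 on chromosome 5 have no partner call in the window, while the third strongest, on chromosome 15, lies 142 bp from RING1B.

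At the edge of the definition, membership turned on single bases, and 157 peaks remained when a gap of up to 1 kb to either list counted as shared. The 5 peaks just inside it had a gap of 0 to 2 bp to RING1B, where 0 is directly adjacent. They lay at chromosome 17, 28660558 to 28660665, chromosome 3, 58495224 to 58495465 and 133207901 to 133208087, chromosome 8, 74659264 to 74659341, and chromosome 6, 140372949 to 140373067. Their folds were 4.52, 4.57, 4.85, 4.49 and 5.48. The 5 just outside shared 1 to 5 bases with RING1B and none with H3K27me3. They lay at chromosome 1, 135975410 to 135975536 and 157405300 to 157405653, chromosome 18, 24113365 to 24113584, chromosome 4, 155069359 to 155069431, and chromosome 2, 103810470 to 103810644. Their folds were 4.51, 4.44, 4.56, 5.57 and 3.80.

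The 346 peaks were found on every autosome, on X and on Un_random. The share of PCGF1 peaks without partners was 19.6% (13.3 to 27.2) on chromosome 10, 18.1% (12.8 to 24.5) on 19 and 17.7% (12.6 to 23.7) on 11. It was lowest on chromosome 18, with 4 of 66 (6.06%, 1.68 to 14.8), and was 9.69% (5.94 to 14.7) on chromosome 8. The interval of each autosome held the 13.5% of the whole list. X held 3 of 13, too few to compare. Within 1 kb of RING1B lay 22 of the 35 peaks on chromosome 11 and 19 of the 33 on chromosome 19, but 3 of the 10 on chromosome 16.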

How the data were processed

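The labels describe 44 ChIP-seq and input libraries in 23 groups, and the 3 peak lists analysed stand for 6 of them. The remaining 38 were left out, since no values of theirs were used. The submitters' processing notes name Bowtie2, Picard and SAMtools 1.6.0, and the builds mm9 and dm3; the positions fit mm9, since chromosome 1 is listed up to base 197194960 and unplaced sequence has the names of that build. No source used here gives the peak caller, the control, the threshold or any pooling of reads. The PCGF1 and RING1B lists have no header, so the meaning of their columns is assumed from the usual broadPeak layout: the deposited fold enrichment is taken as a ratio over a background. The deposited -log10 q and -log10 p, and the deposited score (not used further), were read the same way as the authors' own values per peak. Per the file headers, H3K27me3 regions have a height and total signal of unstated scale and a width above cutoff in bp.

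Peaks were compared with Python 3.11.15, scipy 1.17.1 and pandas 2.3.3; sharing meant at least 1 bp, and bedtools 2.31.1 gave the same 346 peaks. broadPeak starts were moved to 1-based; H3K27me3 positions stayed as listed. The gap is the number of bases between 2 calls. The procedure recovered 1000 of 1000 planted overlaps and gaps in simulated data. Peaks named were the 10 of highest fold and of highest -log10 q, the 5 widest, the 5 farthest from both lists, the 5 on each side of the rule, and groups of 3 or more within 5 kb. The members, the lists and this rule were chosen with earlier results of these data known. The 10 kb limit for far peaks was set after the distances were seen.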

Additional observations from a re-analysis of the deposited data

How the results depend on the processing

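The number of PCGF1 peaks on neither list rests on how near counts as shared. Counting a gap of up to 1 kb as shared left 157 of the 2569 PCGF1 peaks (6.11%), and 5 kb left 90 (3.50%). Limits on the -log10 q of PCGF1 peaks also shortened the PCGF1 list itself. Values of 2 or more left 94 of 1240 peaks (7.58%, 6.17 to 9.20). Values of 5 or more left 4 of 64 (6.25%, 1.73 to 15.2). The number stayed within 1.5 times 346 in the other 6 settings (252 to 448). Their shares ran from 11.9% to 17.4%, against 13.5% as reported. The share within 1 kb of RING1B, 50.6%, was 58.2% when 50% of a PCGF1 peak had to be covered, 30.1% with RING1B peaks of -log10 q of at least 2, and 40.2% with PCGF1 peaks within 1 kb merged. The share within 1 kb of H3K27me3, 9.83%, was 13.6% with 50% covered and 6.50% with the taller 50% of regions. The share with another PCGF1 peak within 10 kb, 32.1%, was 15.9% and 12.2% with gaps of 1 and 5 kb counted as shared, 20.2% with -log10 q of at least 2, 25.4% with peaks of at least 100 bp and 5.30% after merging. The median width was 191 bp with peaks of at least 100 bp. The median fold was 5.05 and the median -log10 q 2.45 with -log10 q of at least 2. With -log10 q of at least 5, 4 peaks were left, with medians of 54 bp, 5.97 and 6.96, and all 3 shares were 0%, which with 4 peaks allows up to 60.2% (exact 95% limit). Gaps counted as shared, limits on width or -log10 q and merging act on these values by construction. So does the 50% setting, which admits PCGF1 peaks that share bases with a partner. Keeping only the taller 50% of H3K27me3 regions can only leave or lengthen the gap of a given peak. How much of each change this accounts for was not tested. Shares within 1 kb of a partner have no value where such gaps count as shared. No paired analysis was possible because each list is deposited for a pair of libraries as one, and leaving out a replicate was not possible for the same reason. Promoter shares were not run, since no annotation of build mm9 was used.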
